A study of Mus musculus with 6 samples.

Results

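The guanylate-binding protein genes *Gbp2* to *Gbp9* were examined in mouse embryonic fibroblasts (MEFs) undergoing reprogramming with or without AKT activation. The members were the 8 genes whose GENCODE symbol is 1 of these names, out of 54331 genes in the table, of which 54097 have a symbol. All cells came from male E13.5 embryos of a mixed C57BL/6, DBA/2 and ICR background that carried an Oct4-EGFP transgene, and all had been transduced with Oct4, Sox2, Klf4 and AKT-MER, in which AKT is joined to a modified estrogen receptor. In the OSKA + 4OHT group the cells were given 4-hydroxytamoxifen (4OHT), the ligand that activates AKT-MER, and in the OSKA − 4OHT group they received a mock treatment. PolyA RNA was sequenced at 10 days postinfection (dpi) from 3 wells of each group. The wells are separate cultures of transduced MEFs that, by the methods, were plated after the transduction, so the p-values measure the spread between wells, which may be technical. No 4OHT-treated cells without AKT-MER are among these libraries, so the ligand itself and AKT activation cannot be told apart here. RNA was taken from whole wells, so a change in the share of cells that express a gene and a change in its RNA per cell cannot be told apart.

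Guanylate-binding proteins are large GTPases of the dynamin superfamily that are strongly induced by interferons. They gather on the membranes of pathogen-containing vacuoles and on the surface of cytosolic bacteria, where they help to break the membrane and to bring bacterial lipopolysaccharide to the noncanonical inflammasome. Their recruitment to vacuoles depends on the immunity-related GTPases and on the ATG8 conjugation machinery, and some members, *Gbp2* and *Gbp5* among them, carry a C-terminal CaaX box to which a lipid is attached. In the mouse the genes lie in a cluster on chromosome 3 and another on chromosome 5. On GRCm38, *Gbp5*, *Gbp7*, *Gbp3* and *Gbp2* follow each other on the plus strand of chromosome 3 between 142493978 and 142638008, and *Gbp8*, *Gbp9*, *Gbp4* and *Gbp6* lie on the minus strand of chromosome 5 between 105014150 and 105293698.

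The promoters of the 4 members on chromosome 3 are shown because each holds the letters that interferon-activated factors are known to recognize. RefSeq promoter sequences of GRCm38.p6 were found for these 4 members, and *Gbp4*, *Gbp6*, *Gbp8* and *Gbp9* had no entry. In each 300-base window, from 250 bases before the RefSeq start to 50 after it, 2 sets of letters were searched on both strands. The first, the core of the interferon-stimulated response element (ISRE), is GAAA followed, after any 2 bases, by another GAAA. The second, the gamma-activated site, is TTCNNNGAA. The sequences below are on the plus strand, with every match in capitals. They stop before the first annotated exon base within the window or, for *Gbp7*, whose annotated exons start further on, before the RefSeq start. That of *Gbp5* lies inside the annotated span of the gene, which starts further upstream, at 142493978. That of *Gbp2* runs 12 bases into an exon of a longer transcript to hold its match. The capitals at TTTC mark the ISRE letters read on the opposite strand, and those at TTC with GAA mark TTCNNNGAA.
*Gbp5* promoter, chr3:142496684-142496899: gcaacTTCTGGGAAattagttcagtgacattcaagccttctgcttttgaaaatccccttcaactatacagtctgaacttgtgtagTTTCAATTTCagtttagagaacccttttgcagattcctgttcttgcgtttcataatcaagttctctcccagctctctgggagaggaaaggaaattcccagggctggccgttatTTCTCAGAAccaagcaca
*Gbp7* promoter, chr3:142530086-142530335: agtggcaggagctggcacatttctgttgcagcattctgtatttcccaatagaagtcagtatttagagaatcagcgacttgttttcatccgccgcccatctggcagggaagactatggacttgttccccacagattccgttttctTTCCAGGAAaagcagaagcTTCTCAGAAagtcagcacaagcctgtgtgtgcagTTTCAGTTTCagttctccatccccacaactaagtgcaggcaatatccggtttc
*Gbp3* promoter, chr3:142559794-142560025: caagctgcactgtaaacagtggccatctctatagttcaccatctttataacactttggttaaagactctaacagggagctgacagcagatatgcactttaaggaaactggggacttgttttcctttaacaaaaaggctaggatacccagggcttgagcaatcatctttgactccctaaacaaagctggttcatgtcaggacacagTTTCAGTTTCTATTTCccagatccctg
*Gbp2* promoter, chr3:142620413-142620613: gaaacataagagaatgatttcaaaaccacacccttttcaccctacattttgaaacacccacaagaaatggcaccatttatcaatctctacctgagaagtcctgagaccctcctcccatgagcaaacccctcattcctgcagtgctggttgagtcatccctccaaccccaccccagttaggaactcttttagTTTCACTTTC

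All 4 members with a promoter held the ISRE letters, always on the minus strand, against 1131 of 32851 promoters in the RefSeq table (3.44%). Counting −1 as the base just before the RefSeq start, the match lay at −59 to −50 in *Gbp2* and at −53 to −44 in *Gbp7*. *Gbp3* had overlapping matches at −45 to −36 and −39 to −30, and its second RefSeq promoter, which starts further downstream, had none. The match of *Gbp5* lay further from the start, at −165 to −156. The same 4 members held a longer form of the letters, in which CT follows the second GAAA, found in 89 promoters of the table (0.271%). TTCNNNGAA was present in 2 members, at −245 to −237 and −52 to −44 in *Gbp5* and at −106 to −98 and −87 to −79 in *Gbp7*, against 2726 promoters (8.30%). These matches describe the letters only, and binding was not measured.

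Levels are given as TPM, which scales each library to a total of 1000000 transcripts and corrects for transcript length, so levels of different genes can be compared. The read depth is not kept on this scale, and no counting interval can be given. Values are listed in the order of replicates 1, 2 and 3, for the control wells (OSKA − 4OHT) and then for the AKT-activated wells (OSKA + 4OHT). The number of genes above 0 was 15814 to 17692 in the control libraries and 17578 to 18230 in the AKT-activated libraries. By the steps of low values, the depth relative to the deepest library, OSKA − 4OHT replicate 2, was roughly 0.506 and 0.575 in OSKA − 4OHT replicates 1 and 3 and 0.781 to 0.926 in the AKT-activated libraries, so a value listed at 0 in the control wells does not show that the gene was absent. Wells of the same group correlated across genes, which are not independent replicates, with Pearson's r between 0.809 and 0.864. The fibroblast marker *Col1a1*, a collagen chain, was at 751.0 to 1102 TPM in the OSKA − 4OHT wells and at 547.7 to 643.3 TPM in the OSKA + 4OHT wells, and *Pdgfra* was above 0 in all wells, at 4.78 to 6.50 TPM.

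Summed over the 8 members, the family was at 28.0, 21.7 and 28.6 TPM in the control wells and at 134.5, 163.0 and 246.3 TPM in the AKT-activated wells. Every AKT-activated well was far above every control well, the lowest of the former being 4.71 times the highest of the latter. The group means were 26.1 ± 3.84 and 181.3 ± 58.1 TPM (SD, n = 3), a ratio of 6.94. The ratio was 5.57 without *Gbp3*, the member with the highest level, and between 5.70 and 7.84 when 1 well was left out. The sum is less affected than single members by reads that the quantification may split between paralogs, and it is given without a test.

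**Figure D1:**
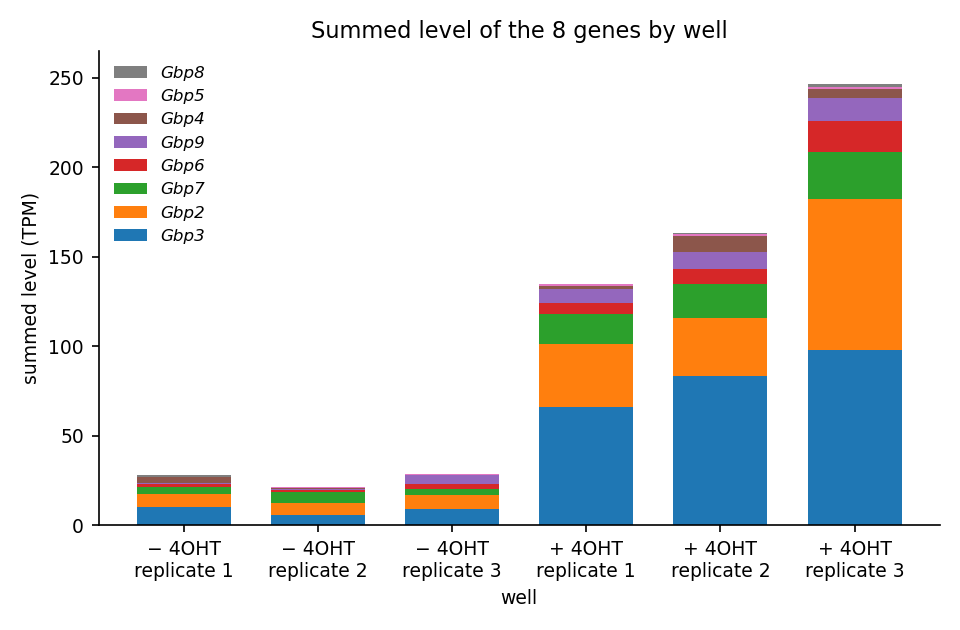
Summed level of the 8 guanylate-binding protein genes in each well (y axis, TPM, from 0), stacked by gene, for OSKA − 4OHT and OSKA + 4OHT replicates 1 to 3. The sums were 21.7 to 28.6 TPM in the control wells and 134.5 to 246.3 TPM in the AKT-activated wells, and *Gbp3* and *Gbp2* made up the largest blocks in every AKT-activated well.

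The groups were compared with limma on log2(TPM + 0.5), in a fit of 15382 genes whose mean over the 6 wells was 1 TPM or more. Genes were called where the p-value, adjusted by the Benjamini-Hochberg method, was below 0.05 and the log2 fold change was beyond 1 in either direction. On this scale, fold changes of low genes come out too small. Of the 8 members, 6 passed the filter. *Gbp2*, *Gbp3*, *Gbp6* and *Gbp7* were called higher in the OSKA + 4OHT group and 0 members were called lower (0 also at an unadjusted p under 0.05), against 2.87% of all tested genes called higher and 1.37% called lower. At an unadjusted p under 0.05, 14.1% of all tested genes were higher and 7.18% lower. Every AKT-activated well exceeded every control well in 5 of the 6 tested members, and in 18.1% of all tested genes. Among all 15382 genes the median was 0.14 on the log2 scale. When 1 well was left out, between 1 and 3 members were called, of which 1 or 2 were among the 4 called with all wells, and the other was *Gbp9*, without OSKA − 4OHT replicate 3. With the replicate number as a block, 0 members were called, and the limma adjusted p-values of the 4 were 0.0555 to 0.0931. That fit called 31 of all genes higher and 16 lower. An exact permutation test of 3 wells against 3 cannot give a 2-sided p-value below 0.1, so single genes were tested only in the fit across all genes.

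**Figure D2:**
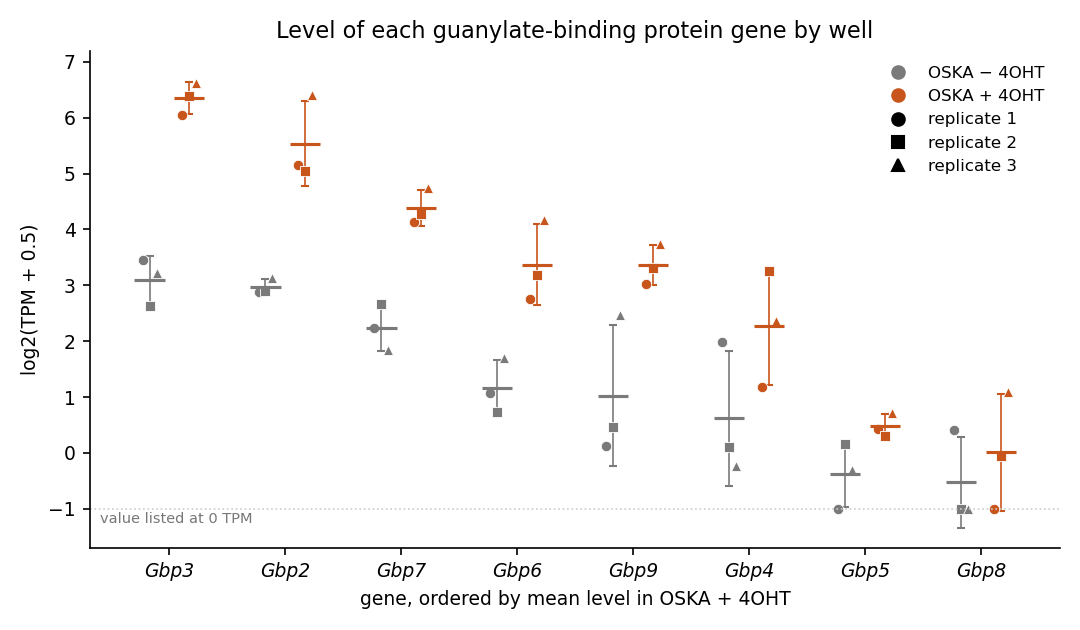
Level of each member in each well on the log2(TPM + 0.5) scale (y axis), with genes ordered on the x axis by their mean in OSKA + 4OHT. Symbols are wells, horizontal bars are group means and error bars are SD (n = 3); the groups were apart for *Gbp3*, *Gbp2*, *Gbp7*, *Gbp6* and *Gbp9*, were near the worth of 3 reads for *Gbp5*, and overlapped for *Gbp4* and *Gbp8*.

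*Gbp3* (ENSMUSG00000028268, chromosome 3, 142560026 to 142573209, plus strand) had the highest mean level in both groups. It was at 10.5, 5.66 and 8.85 TPM in the control wells and at 66.0, 83.2 and 97.7 TPM in the AKT-activated wells. The AKT-activated wells were close to each other and all far above the control wells. The means were 8.34 ± 2.45 and 82.3 ± 15.9 TPM (SD, n = 3), a ratio of 9.87. The log2 fold change was 3.25 (SE 0.274, 95% confidence interval 2.59 to 3.91) with a limma adjusted p of 0.00376. *Gbp3* was the only member called in all 6 fits that left out 1 well, with log2 fold changes of 3.01 to 3.43 and adjusted p-values of 0.0150 to 0.0285. With the replicate number as a block the call was lost, at the same log2 fold change and a limma adjusted p of 0.0555. Its share of the summed family level was 37.4%, 26.1% and 31% in the control wells and 49.1%, 51.0% and 39.7% in the AKT-activated wells, with no overlap. Its transcripts are largely distinct at the read length, since 3.75% of their 50-base windows also occur in another gene.

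*Gbp2* (ENSMUSG00000028270, chromosome 3, 142620602 to 142638008, plus strand) encodes a lipid-modified member that coats vacuoles of *Toxoplasma* and cytosolic *Francisella*. It was at 6.86, 6.92 and 8.24 TPM in the control wells and at 35.0, 32.6 and 84.5 TPM in the AKT-activated wells. The control wells lay close together, the groups did not overlap, and OSKA + 4OHT replicate 3 stood well above the other AKT-activated wells, at 2.50 times their mean. The means were 7.34 ± 0.778 and 50.7 ± 29.3 TPM (SD, n = 3), a ratio of 6.90. The log2 fold change was 2.57 (SE 0.383, 95% confidence interval 1.65 to 3.49) with a limma adjusted p of 0.0183. Without OSKA + 4OHT replicate 3 the call was kept, with a log2 fold change of 2.13 and an adjusted p of 0.0184. It was lost when any of the other 5 wells was left out, with adjusted p-values of 0.0517 to 0.0708 and log2 fold changes up to 2.81. Of its 50-base windows, 2.03% occur in another gene.

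*Gbp7* (ENSMUSG00000040253, chromosome 3, 142530342 to 142550149, plus strand) was at 4.19, 5.86 and 3.06 TPM in the control wells. In the AKT-activated wells it was at 17, 18.9 and 26.4 TPM. All AKT-activated wells were above all control wells. The means were 4.37 ± 1.41 and 20.8 ± 4.94 TPM (SD, n = 3), a ratio of 4.75. The log2 fold change was 2.14 (SE 0.299, 95% confidence interval 1.42 to 2.86) with a limma adjusted p of 0.0152. The call was kept without OSKA − 4OHT replicate 2 or replicate 3, with adjusted p-values of 0.0340 and 0.0416. It was lost without OSKA − 4OHT replicate 1 or any 1 of the AKT-activated wells, with adjusted p-values of 0.0515 to 0.0662 and log2 fold changes of 1.96 to 2.27. *Gm43802*, a processed pseudogene on the same strand within the span of *Gbp7* (chromosome 3, 142547882 to 142548518), shares 100% of its 50-base windows with *Gbp7*, so its reads cannot be told apart from those of *Gbp7* by sequence. It was listed at 0 in all control wells and at 15.2, 20.6 and 12.0 TPM in the AKT-activated wells. With its values added to *Gbp7* after scaling to the length of *Gbp7*, an alternative chosen after seeing the data, the ratio for *Gbp7* was 5.02 and it was still called.

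*Gbp5* (ENSMUSG00000105504, chromosome 3, 142493978 to 142522344, plus strand), a lipid-modified member known for a role in NLRP3 inflammasome assembly, was much lower than its neighbours. It was at 0, 0.612 and 0.307 TPM in the control wells and at 0.840, 0.736 and 1.14 TPM in the AKT-activated wells. Every AKT-activated well was above every control well, with means of 0.306 ± 0.306 and 0.905 ± 0.211 TPM (SD, n = 3). By the steps of low values, 3 reads on its longest transcript were worth roughly 1.02 and 0.902 TPM in OSKA − 4OHT replicates 1 and 3. This is more than the AKT-activated values of 0.840 and 0.736 TPM and less than that of 1.14 TPM, so a difference between the groups could not be read at this depth. Its mean was below the filter, and in the fit with no filter its log2 fold change was 0.87 with a limma adjusted p of 0.442. *Gbp5* has the promoter letters of its neighbours, as printed above, and its level was at most 1.14 TPM in all wells.

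Among the members on chromosome 5, *Gbp6* (ENSMUSG00000104713, 105270702 to 105293698, minus strand) was at 1.60, 1.17 and 2.75 TPM in the control wells. In the AKT-activated wells it was at 6.28, 8.63 and 17.4 TPM. The groups did not overlap, and OSKA + 4OHT replicate 3 was again the highest, at 2.34 times the mean of the other AKT-activated wells. The means were 1.84 ± 0.817 and 10.8 ± 5.88 TPM (SD, n = 3), a ratio of 5.86, and the log2 fold change was 2.20 (SE 0.461, 95% confidence interval 1.09 to 3.31) with a limma adjusted p of 0.0482. This call stood at the edge of the threshold. It was lost in all 6 fits that left out 1 well, with log2 fold changes of 1.81 to 2.51 and adjusted p-values of 0.0711 to 0.144. *Gbp6* is also the member whose transcripts are least distinct. Of its 50-base windows, 70.7% occur in another gene. *Gm43302* holds 65.0% of all windows of *Gbp6* and *Gbp10* holds 45.9%. *Gm43302* was listed at 0 in all wells and *Gbp10* in all but OSKA + 4OHT replicate 2, at 0.803 TPM, so nearly all of the signal for these sequences was assigned to *Gbp6*.

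*Gbp9* (ENSMUSG00000029298, chromosome 5, 105077630 to 105139539, minus strand) was at 0.595, 0.883 and 5.01 TPM in the control wells and at 7.63, 9.43 and 12.8 TPM in the AKT-activated wells. The groups did not overlap, but OSKA − 4OHT replicate 3 was several-fold above the other control wells. The means were 2.16 ± 2.47 and 9.96 ± 2.64 TPM (SD, n = 3), a ratio of 4.61. The log2 fold change was 2.34 (SE 0.644, 95% confidence interval 0.78 to 3.89), and *Gbp9* was not called, with a limma adjusted p of 0.0975. Without OSKA − 4OHT replicate 3 it was called, with a log2 fold change of 3.06 and an adjusted p of 0.0263. When any 1 of the other wells was left out, the adjusted p was 0.196 to 0.236.

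*Gbp4* (ENSMUSG00000079363, chromosome 5, 105115767 to 105139586, minus strand) varied between wells of the same group. It was at 3.48, 0.573 and 0.346 TPM in the control wells and at 1.76, 9.07 and 4.65 TPM in the AKT-activated wells. The groups overlapped, since OSKA − 4OHT replicate 1 was above OSKA + 4OHT replicate 1. The means were 1.47 ± 1.75 and 5.16 ± 3.68 TPM (SD, n = 3), and the log2 fold change of 1.65 (SE 0.797, 95% confidence interval −0.27 to 3.57) was not called, with a limma adjusted p of 0.301. With 1 well left out, *Gbp4* was called in 0 of 6 fits, with log2 fold changes of 1.15 to 2.34. *Gbp8* (ENSMUSG00000034438, chromosome 5, 105014150 to 105139540, minus strand) was at 0.833, 0 and 0 TPM in the control wells and at 0, 0.462 and 1.63 TPM in the AKT-activated wells. Its groups overlapped as well, its mean was below the filter, and with no filter its log2 fold change was 0.54 with a limma adjusted p of 0.685. *Gbp4*, *Gbp8* and *Gbp9* overlap on the same strand, and 7.70%, 18.1% and 8.05% of their 50-base windows occur in any other gene. Among these members, *Gbp4* shares 2.96% of its windows with *Gbp8* and 2.05% with *Gbp9*, and *Gbp8* shares 6.64% with *Gbp9*. The largest share of *Gbp8* is with *Gbp11*, at 7.37%. Reads may have been split between these members or with other genes.

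**Figure D3:**
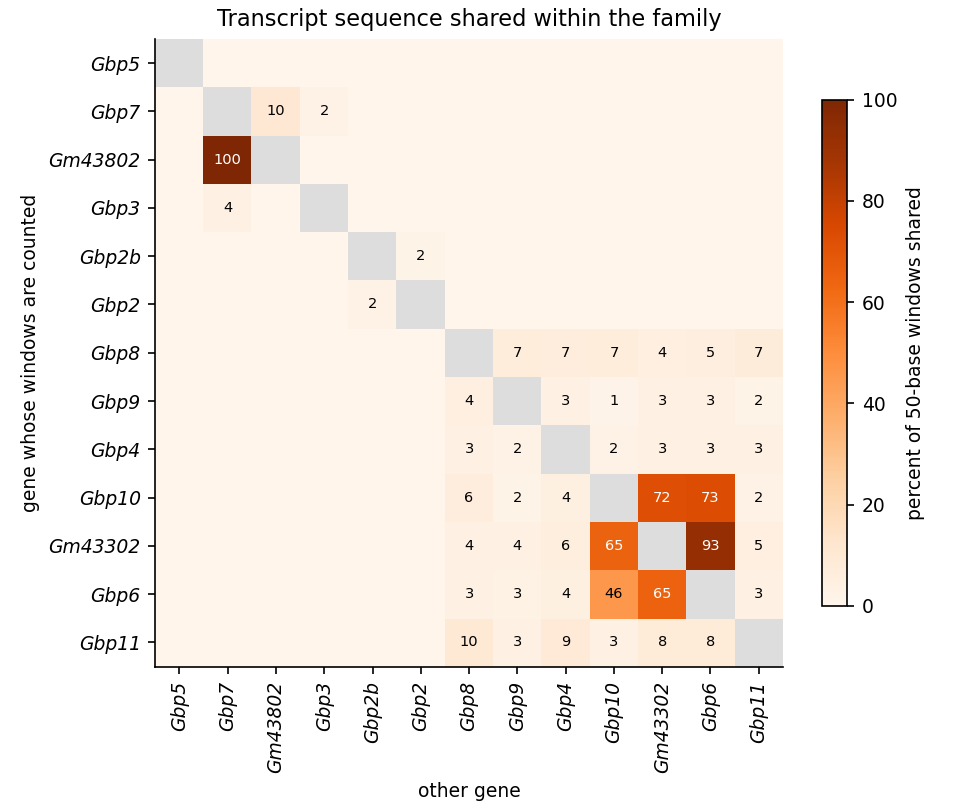
Share of the 50-base windows of each gene's transcripts (row) that occur in the transcripts of another gene of the family (column), in percent, with genes in chromosomal order. Sharing between the clusters rounds to 0%, *Gbp3* shares 3.75% of its windows with *Gbp7*, all windows of *Gm43802* (100%) occur in *Gbp7*, and *Gbp6* shares 65.0% and 45.9% of its windows with *Gm43302* and *Gbp10*.

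Ordered by mean level, the control wells gave *Gbp3*, *Gbp2*, *Gbp7*, *Gbp9*, *Gbp6*, *Gbp4*, *Gbp5* and *Gbp8*, and the AKT-activated wells gave the same order except that *Gbp6* came before *Gbp9*. The ranges of neighbours in this order overlapped, except between *Gbp2* and *Gbp7*, in both groups, and between *Gbp4* and *Gbp5*, in the OSKA + 4OHT group. Within wells, 5 of the 7 neighbouring pairs had the same order in all 3 AKT-activated wells, the exceptions being *Gbp6* with *Gbp9* and *Gbp5* with *Gbp8*, and 1 of 7 did in the control wells, *Gbp2* above *Gbp7*. Summed by cluster, the members on chromosome 3 were at 21.5, 19.1 and 20.5 TPM in the control wells and at 118.8, 135.4 and 209.7 TPM in the AKT-activated wells, a ratio of the means of 7.60. Those on chromosome 5 were at 6.51, 2.62 and 8.11 TPM in the control wells and at 15.7, 27.6 and 36.5 TPM in the AKT-activated wells, a ratio of 4.63. Both clusters were higher in every AKT-activated well, and the difference between the ratios was not tested. OSKA + 4OHT replicate 3 was the highest AKT-activated well for 7 of the 8 members, the exception being *Gbp4*, which was highest in replicate 2. For *Gbp5* and *Gbp8* this rests on few reads, at 1.14 and 1.63 TPM in that well. The share of all genes that were highest in that well was not counted.

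**Figure D4:**
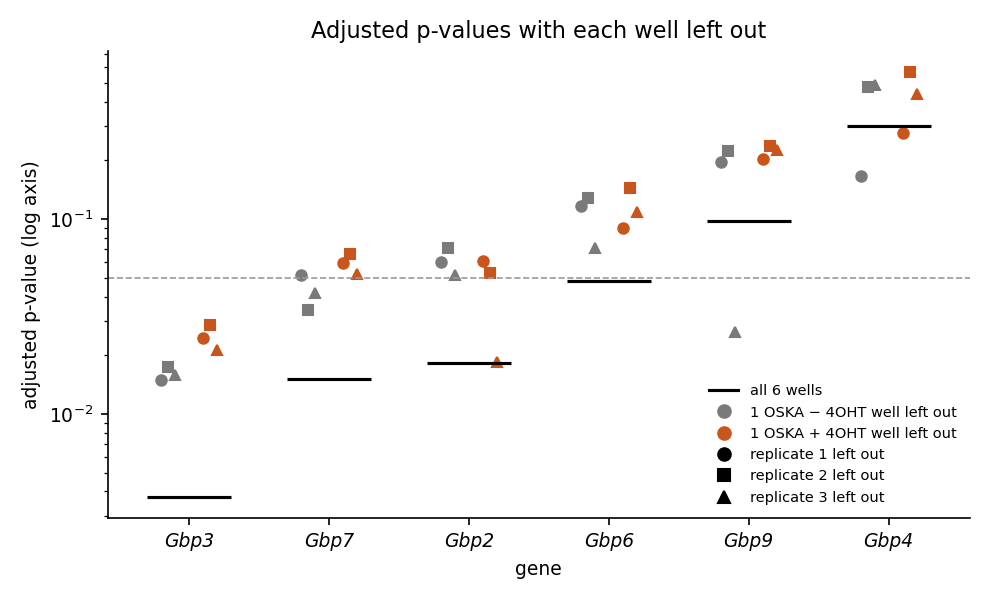
Adjusted p-value (y axis, log axis) of each tested member in the fit over all 6 wells (black bars) and with each well left out (symbols by group and replicate), with the threshold of 0.05 as a dashed line. Only *Gbp3* stays under the line in all fits, *Gbp6* is under it only with all 6 wells, and *Gbp9* only without OSKA − 4OHT replicate 3.

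The other annotated guanylate-binding protein genes were near 0. *Gbp2b*, which carries an ISRE match at −137 to −128, was at 0.209 TPM in OSKA − 4OHT replicate 2 and listed at 0 in the other wells. *Gbp10* and *Gbp11* were above 0 only in OSKA + 4OHT replicate 2, at 0.803 and 0.299 TPM.

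The genes around the family were described by fixed lists, from the interferons down to the partners of the proteins. Their counts at an unadjusted p under 0.05 are to be read against the 14.1% higher and 7.18% lower among all tested genes. Of 20 interferon genes, among them *Ifng*, *Ifnb1* and the alpha interferons, 20 were listed at 0 in all 6 libraries. Of all 54331 genes, 24191 were above 0 in any library, so listing at 0 was common. It does not show that the interferon genes were absent in either group. Of 18 interferon receptors, signal transducers and regulators, 17 were tested, of which *Nlrc5* and *Socs1* passed the filter only through the AKT-activated wells. Of the other 15, 2 were called higher and 0 lower (5 and 1 at an unadjusted p under 0.05), with a median log2 fold change of 0.46. *Usp18*, a negative regulator of the type I receptor, was the larger of these changes, at 6.77, 2.78 and 8.72 TPM in the control wells and at 39.8, 67.6 and 41.1 TPM in the AKT-activated wells. Its groups did not overlap, with a log2 fold change of 3.01 (SE 0.434) and a limma adjusted p of 0.0168. The other was *Stat2*, a transcription factor of type I interferon signaling (1.97 and 0.0239). Of the 6 fits that left out 1 well, *Usp18* was called in the 3 that left out a control well and *Stat2* in 1, without OSKA − 4OHT replicate 3. With the replicate number as a block, 0 genes of the list were called higher.

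Of the other regulators, those named here were chosen after their values were seen. *Irf1*, an activator of guanylate-binding protein genes, was at 15.1, 10.1 and 7.38 TPM in the control wells and at 12.4, 12.7 and 36.5 TPM in the AKT-activated wells. Its groups overlapped, it was high in OSKA + 4OHT replicate 3 alone, and its limma adjusted p was 0.434. *Socs3*, a feedback inhibitor of cytokine receptors, was at 92.7, 103.0 and 103.9 TPM in the control wells and at 84.1, 91.9 and 521.6 TPM in the AKT-activated wells, again high in OSKA + 4OHT replicate 3 alone (limma adjusted p 0.610). In that well, which was the highest for 7 of the 8 members, *Socs3* was 5.93 times and *Irf1* 2.91 times the mean of the other AKT-activated wells, *Stat2* was 1.11 times and *Irf7* 0.538 times. The part of this well's difference in the results was not tested beyond leaving it out, which left *Gbp3* and *Gbp2* called. *Irf7*, a type I interferon regulator (limma adjusted p 0.0888), *Irf9*, the DNA-binding partner of STAT2 (0.122), and *Ifnar2* (0.186) were higher in every AKT-activated well than in every control well and were not called. In the other direction, *Jak2* (log2 fold change −0.66, limma adjusted p 0.0624), *Jak1* (0.292) and *Ifngr1* (0.418) were lower in every AKT-activated well and were not called.

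The immunity-related GTPases, smaller interferon-induced GTPases that prepare vacuole membranes for guanylate-binding proteins, were tested in 10 genes. Of these, *Tgtp2*, *Gm4951* and *Gm12250* were listed at 0 in all control wells and passed the filter only through the AKT-activated wells, so they are not counted and their fold changes are not given. Of the other 7, 5 were called higher and 0 lower (5 and 0 at an unadjusted p under 0.05), with a median log2 fold change of 2.06. The called genes were *Irgm1*, *Irgm2*, *Igtp*, *Iigp1* and *Tgtp1*. *Tgtp1* had the largest called change, from 25.9, 14.5 and 16.6 TPM in the control wells to 152.7, 191.3 and 344.1 TPM in the AKT-activated wells, with a log2 fold change of 3.52 (SE 0.358) and a limma adjusted p of 0.00603. Its groups did not overlap, and it was called in all 6 fits that left out 1 well. Of the other 4, *Irgm1* was called in 3 of those fits, *Igtp* and *Irgm2* in 1, without OSKA − 4OHT replicate 3, and *Iigp1* in 0. With 1 well left out, between 1 and 4 genes of the list were called, and with the replicate number as a block 1 was. Sequence shared between genes of this list, such as *Tgtp1* and *Tgtp2*, was not counted, so how reads were split between them is not known.

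The lists of downstream partners gave 0 calls by limma. Of 10 inflammasome and pyroptosis genes, 6 were tested, 0 were called in either direction, 1 (*Nek7*) was lower at an unadjusted p under 0.05, and the median log2 fold change was 0.40. *Casp4*, which encodes the lipopolysaccharide-sensing caspase-11 and was chosen after its values were seen, was at 4.04, 0.898 and 0.919 TPM in the control wells and at 0.575, 2.69 and 2.02 TPM in the AKT-activated wells, with overlapping groups and a limma adjusted p of 0.992. Of 13 ATG8 conjugation and ubiquitin genes, 13 were tested and 0 called, with a median of −0.025, and at an unadjusted p under 0.05 *Trim21* was higher and *Map1lc3a* and *Map1lc3b* were lower. Of 6 enzymes of prenylation and CaaX processing, which attach and trim the lipid anchor, 6 were tested and 0 called, also at an unadjusted p under 0.05, with a median of −0.16. The limma calls of these 3 lists were 0 in both directions under all alternatives run, which does not show that the genes were equal in both groups.

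**Figure D5:**
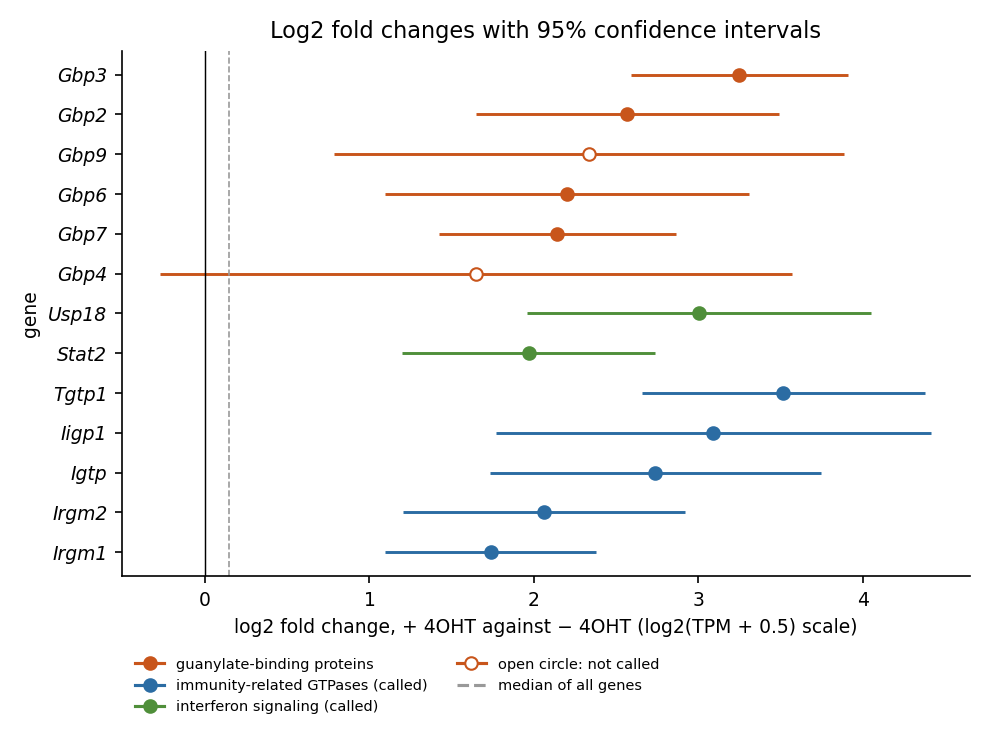
Log2 fold change of OSKA + 4OHT against OSKA − 4OHT (x axis, log2(TPM + 0.5) scale) with 95% confidence intervals from limma (n = 3 per group) for the tested members and for the called genes above 0 in the control wells among the interferon signaling and immunity-related GTPase lists; filled circles are called genes and the dashed line is the median of all tested genes. *Gbp3* at 3.25 lies beside *Tgtp1* at 3.52, and only the interval of *Gbp4* reaches 0.

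Markers of other cell types were read beside the family. The 17 macrophage markers, of which 16 were tested, had 0 called genes by limma (2 lower at an unadjusted p under 0.05), and their summed level was 258.3 to 294.0 TPM in the control wells and 174.6 to 193.5 TPM in the AKT-activated wells. Without *Lyz2* and *Laptm5*, which were left out after their values were seen, the sums were 98.8 to 132.5 TPM and 85.2 to 99.2 TPM and overlapped. *Lyz2* was lower at a limma adjusted p of 0.0299 with a log2 fold change of −0.88. The log2 fold change was above 0 for 5 of the 16, 2 of which, *Aif1* and *Fcgr1*, passed the filter only through the AKT-activated wells. The other 14 had a median log2 fold change of −0.58. *Fcgr1*, an Fc receptor that was chosen after its values were seen and passed the filter only through the AKT-activated wells, was at 0.390, 0.179 and 0.630 TPM in the control wells and at 0.641, 3.44 and 4.12 TPM in the AKT-activated wells (limma adjusted p 0.256). Of 12 T and NK cell markers, 7 were listed at 0 in all libraries, *Cd3e*, *Ncr1* and *Ifng* among them, 2 were tested and 0 called (1, *Cd2*, higher at an unadjusted p under 0.05, which passed the filter only through the AKT-activated wells), and the list summed to 1.02 to 9.81 TPM in the control wells and 7.27 to 8.75 TPM in the AKT-activated wells. *Cd2* was at 0.652 TPM in OSKA − 4OHT replicate 2 and listed at 0 in the other control wells, and was at 3.59, 0.697 and 3.80 TPM in the AKT-activated wells (limma adjusted p 0.200). The other tested marker, *Cd3g*, was named after its values were seen. It was at 9.81, 0 and 4.08 TPM in the control wells and at 5.15, 6.93 and 2.98 TPM in the AKT-activated wells, with overlapping groups. Of 8 endothelial markers, 2 were tested and 0 called (1, *Tek*, higher at an unadjusted p under 0.05). The list summed to 22.7 to 29.7 TPM and 28.6 to 39.3 TPM, and *Cdh5* was at most 0.806 TPM. *Pecam1* was at 8.32, 9.69 and 11.4 TPM in the control wells and at 13.8, 5.81 and 14.1 TPM in the AKT-activated wells. *Tek* was at 12.8, 14.5 and 15.7 TPM and at 23.2, 21.2 and 21.4 TPM, with no overlap (limma adjusted p 0.102). The 10 fibroblast markers summed to 2950 to 3665 TPM in the control wells and 2249 to 2542 TPM in the AKT-activated wells, with *Lum*, a matrix proteoglycan, called higher (log2 fold change 2.37, limma adjusted p 0.00392) and *Pdgfrb*, a growth factor receptor, called lower (−1.65 and 0.0113). At an unadjusted p under 0.05, 3 of the 10 were higher and 3 lower, with a median log2 fold change of −0.11. Without *Col1a1* and *Col1a2*, left out after their values were seen, the other 8 summed to 675.9 to 803.7 TPM in the control wells and 787.4 to 968.6 TPM in the AKT-activated wells. Of 8 pluripotent cell markers, 7 were tested, with sums of 6.55 to 14.2 TPM and 51.9 to 67.5 TPM. *Nanog*, *Tdgf1*, *Zfp42* and *Dppa5a* were called higher, but of these only *Tdgf1* would have passed the filter by its control wells, so the number called is not read as a result. *Dppa5a* was listed at 0 in all control wells and at 16.4, 25.7 and 18.5 TPM in the AKT-activated wells. With 1 well left out, 1 or 2 of the 4 were called, *Dppa5a* in all 6 fits, *Tdgf1* in the 3 that left out a control well, and *Nanog* and *Zfp42* in 0, and *Pdgfrb* was not called without OSKA + 4OHT replicate 1. The part of the fibroblast, macrophage, T and NK cell, endothelial and pluripotent cell markers in the levels of the family was not tested.

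Over the 6 wells, the genes whose log2 level was most like that of the summed family were *Ifit3*, *Tgtp1*, *Gm5844*, *Tob1* and *Gm3320*, with Pearson's r of 0.994, 0.994, 0.994, 0.994 and 0.993. This ranking covered 10008 genes with a range of at least 1 on the log2 scale, of which 617 had r above 0.9, and it is a description of 6 points that share their libraries and mostly separate the groups. *Tob1* had a smaller change than the family, from 60.5, 55.3 and 55.5 TPM in the control wells to 96.8, 103.8 and 111.4 TPM in the AKT-activated wells, a log2 fold change of 0.86. *Ifit3*, an interferon-induced gene, rose from 4.95, 3.74 and 5.28 TPM to 23.3, 41.6 and 60.3 TPM (log2 fold change 2.94, limma adjusted p 0.0113). *Gm5844* was listed at 0 in all control wells and at 2.36, 3.11 and 6.32 TPM in the AKT-activated wells, and *Gm3320* was listed at 0 in the control wells and at 7.99, 9.09 and 14.6 TPM. For some regulators picked by hand, r was 0.959 for *Stat2*, 0.815 for *Irf9*, 0.75 for *Irf7*, 0.666 for *Irf1* and 0.520 for *Socs3*. *Usp18* and the rest of the list were not among them, so these values do not rank the regulators.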

How the data were processed

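Libraries of 6 wells, 3 with and 3 without 4OHT, were analysed. The authors trimmed 50-base single-end reads of stranded polyA libraries with Trim Galore and quantified them with Salmon on reference mouse transcripts. They deposited TPM, 1 value for each gene and well. The versions and the annotation release are not given in the sources used here. The deposited columns of the authors' own comparison (log2 fold change, average level, F statistic and p-value) were not used. Symbols and positions came from GENCODE M21 on GRCm38, promoters from RefSeq (GRCm38.p6).

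Low values were checked for steps of whole reads. Between 38.4% and 42.3% of them lay within 0.15 of a whole number, against 30% for evenly spread values, so reads were not recovered and no count test was run. By these steps the relative depth was roughly 0.506, 1 and 0.575 in OSKA − 4OHT replicates 1 to 3 and 0.871, 0.926 and 0.781 in OSKA + 4OHT replicates 1 to 3.

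Genes whose mean reached 1 TPM were tested with limma 3.58.1 (trend, R 4.3.3) on log2(TPM + 0.5), with Benjamini-Hochberg adjustment and no block. In simulated data, 200 of 15382 genes were changed, all drawn from genes with a mean log2(TPM + 0.5) above 3. Of these, 86% of those at a log2 fold change of 3 and 47% of those at 1.5 were recovered. There were 6 false calls, and an unchanged set gave 0 calls. Genes of lower level were not changed in the simulation, so these rates do not cover them. Shared sequence was counted as 50-base windows on the same strand of the GENCODE transcripts, with Python 3.11.15 and pandas 2.3.3.

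The members and the lists were chosen with earlier results of these data known. By rule, the text names all members, other guanylate-binding protein genes, genes sharing at least 10% of the windows of a member, the largest rise and fall with an adjusted p under 0.05 in each list, and the 5 genes most like the sum. Other genes are named as the called genes of a list of few calls, for an unadjusted p under 0.05 in a list of few such genes, for the way they passed the filter, as defining markers, or as chosen after their values were seen. A planned comparison of protein sequences was not run, and 1 gene of the lists is not reported here. Alternatives were other pseudocounts, filters, scalings and variance models, a replicate block, leaving out each well, 31-base windows and longer promoter letters.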

Additional observations from a re-analysis of the deposited data

How the results depend on the processing

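All 6 tested members were higher in the OSKA + 4OHT group under all alternatives in which they were tested (*Gbp4* did not reach a minimum mean of 5 TPM), and *Gbp3*, *Gbp2* and *Gbp7* were called under every pseudocount, filter, scaling and variance model. *Gbp6* was called at a pseudocount of 0.1 and with a robust prior, but not otherwise, with log2 fold changes of 1.98 and 1.66 at pseudocounts of 1 and 2 (adjusted p 0.0525 and 0.0597), 2.12 with trimmed-mean scaling of log ratios (0.0600), 1.98 after quantile normalization (0.0725), and 2.20 with no filter (0.0870), a minimum mean of 5 TPM (0.0546) or no variance trend (0.0634). The cause was not tested. Quantile normalization moved the median of all genes by −0.15 and gave 335 calls higher and 296 lower, against 441 and 210 as reported.

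With 1 well left out, the log2 fold changes were 2.13 to 2.81 for *Gbp2*, 3.01 to 3.43 for *Gbp3*, 1.81 to 2.51 for *Gbp6*, 1.94 to 2.36 for *Gbp7* and 1.89 to 3.06 for *Gbp9*. Between 1 and 3 members, 111 and 303 genes higher, 63 and 127 genes lower, 0 and 3 interferon regulators and 1 and 4 immunity-related GTPases were called. These fits have fewer samples, and the counts of all genes fell most without OSKA + 4OHT replicate 1.

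The labels do not say whether wells of the same replicate number belong together. The deviations of same-numbered wells correlated weakly, with r of 0.0235, 0.0341 and 0.0837, against −0.0620 to 0.0327 for wells of different numbers. With so few wells this check cannot decide whether they are paired. With the replicate number as a block, log2 fold changes stayed at 2.57 for *Gbp2*, 3.25 for *Gbp3*, 2.20 for *Gbp6* and 2.14 for *Gbp7*, with adjusted p-values of 0.0646, 0.0555, 0.0857 and 0.0931. This fit called 0 members, 31 genes higher and 16 lower, 0 interferon regulators and 1 immunity-related GTPase. Of the 6 wells, 5 correlated best with the well of their own number, all but OSKA + 4OHT replicate 1, which is a hint from the data and not from the design.

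At least 10% of windows were shared with another gene in 3 members at 50 bases and in 5 at 31 bases. Depth is not kept in TPM. *Gbp4*, *Gbp5*, *Gbp8* and *Gbp9* were each below the worth of 3 reads on their longest transcript in at least 1 control well. The protein comparison was not run.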
